A study of Mus musculus with 18 samples.

Results

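Expression of 10 transcription factors of the ETS family, other than *Fli1*, was followed through blood formation from mouse ESCs and through the reprogramming of fibroblasts. The 10 genes were chosen by name and were *Ets1*, *Ets2*, *Erg*, *Etv2*, *Etv4*, *Etv5*, *Etv6*, *Elf1*, *Elk3* and *Sfpi1*, the former symbol of *Spi1*, which encodes PU.1. All 10 were found, as 10 of 20310 genes in the table of the stages and 10 of 20495 in that of the fibroblasts. The stages came from an ESC line of strain 129 with a GFP reporter for brachyury, and were undifferentiated ESCs, mesoderm (MES, Bry GFP+ and FLK1-), hemangioblasts (HB, Bry GFP+ and FLK1+), hematopoietic progenitors (HP, CD41+) and macrophages (MAC, CD11b+). The hemogenic endothelium between HB and HP was not analysed here, so that a difference between HB and HP spans it. Mouse embryonic fibroblasts (MEFs) of strain 129, taken at embryonic day 14.5, were left untreated (uFIB) or were given *Scl*, another name for *Tal1*, with *Lmo2* (SL), *Scl*, *Fli1*, *Gata2* and *Lmo2* (SFGL), or *Fli1*, *Gata2* and *Lmo2* (FGL), and were profiled at day 12 and at day 21. MEFs were wild-type or carried rtTA and a doxycycline-inducible TAL1 cassette with GFP (iTal1-2A-GFP), and the labels do not say which library came from which. A reprogrammed culture can still hold unconverted fibroblasts.

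ETS factors bind DNA through the ETS domain, a winged helix-turn-helix fold that reads the core sequence GGAA, and differ in the sequence around that core, in the partners they take and in the cells that make them. In the blood and vessel lineages, ETV2 is required for the first endothelial and blood progenitors, ERG and ETS1 act in endothelium and ERG also in stem cells and megakaryocytes, ETV6 is a repressor that blood stem cells need, and PU.1 directs the myeloid and B cell lineages. ETV4 and ETV5, of the PEA3 subfamily, are induced by FGF signalling through ERK. The study asked which factors act at each step from the pluripotent cell to the macrophage and which of them can turn a fibroblast into a blood cell.

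The values are FPKM, fragments scaled to transcript length and to library size, which allow levels of different genes to be set side by side within a column. There was 1 value per stage, in which the authors combined 2 replicates, and 1 library per treatment and day. No spread between replicates can be had from them, and no test was run and no p-value is given. A gene is called higher or lower where log2(FPKM + 1) differed by at least 1, that is 2-fold, among genes with at least 1 FPKM in at least 1 column of the table. In the MEFs the call had to hold on both days against uFIB of the same day. All 10 genes passed the filter in the table of stages, and 9 in that of the MEFs. Since the libraries are of bulk RNA, fewer cells that make a message and less of it per cell cannot be told apart.

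The sorted populations expressed the markers of their labels. *Pou5f1* was listed at 383 FPKM in ESCs, *T* (brachyury) at 142 FPKM in MES, *Kdr* (FLK1) at 77.6 FPKM in HB, *Itga2b* (CD41) at 62.5 FPKM in HP and *Csf1r* at 234 FPKM in MAC. Other cell types moved along the same path. The 4 ESC markers summed to 610 FPKM in ESCs, 283 in MES and 60.8 in HB, and the 2 red cell markers used, both embryonic globins, to 6253 FPKM in HP against 2.70 in HB. The summed FPKM of all genes was 381686 in MAC against 180554 to 201844 at the other stages, and the median of all genes rose by 0.30 on the log2 scale from HP to MAC but fell by 0.17 after scaling to the upper quartile. For ESCs the submitters' notes name other tools (Bowtie and HOMER) than for the other stages (Cufflinks), and the part of this in differences between ESCs and MES was not tested.

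Each of the 10 genes has 1 row in the table of stages, with coordinates on GRCm38. *Ets2*, *Erg* and *Etv5* lie on chromosome 16, at 95702407 to 95721049, 95360204 to 95530365 and 22381313 to 22439570, so that *Erg* and *Ets2* are neighbours in the genome. *Ets1* is on chromosome 9 (32696042 to 32757820), *Etv2* on chromosome 7 (30633616 to 30635852), *Etv4* on chromosome 11 (101769742 to 101785310), *Etv6* on chromosome 6 (134035707 to 134270147), *Elf1* on chromosome 14 (79459937 to 79582476), *Elk3* on chromosome 10 (93247416 to 93311159) and *Sfpi1* on chromosome 2 (91096797 to 91115756). In GENCODE the genes of *Ets1*, *Erg* and *Sfpi1* extend further upstream, to 32636221, 95586593 and 91082390, so that these rows begin at an inner start.

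Of the 10 genes, 7 have a promoter window in the RefSeq tables used here. The 250 bases upstream of *Etv2* and of *Erg* are shown because each of these 2 genes had at its peak more than 5 times its level at the stage before and at the stage after. Both windows are from GRCm38.p6, minus strand, and hold no annotated exon. Matches to the ETS core GGAA, or to TTCC, the same core on the other strand, are in capitals. The window of *Etv2* is chr7:30635853-30636102 and that of *Erg*, upstream of the start given in the table of stages, is chr16:95530366-95530615. As *Erg* extends to 95586593 in GENCODE, its window lies inside the gene and not upstream of its outermost start.
Etv2: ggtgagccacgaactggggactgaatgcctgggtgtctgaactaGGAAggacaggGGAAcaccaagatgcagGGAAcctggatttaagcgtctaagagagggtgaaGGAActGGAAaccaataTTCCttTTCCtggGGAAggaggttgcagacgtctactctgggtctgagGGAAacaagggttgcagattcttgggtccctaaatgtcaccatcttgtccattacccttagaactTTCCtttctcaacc
Erg: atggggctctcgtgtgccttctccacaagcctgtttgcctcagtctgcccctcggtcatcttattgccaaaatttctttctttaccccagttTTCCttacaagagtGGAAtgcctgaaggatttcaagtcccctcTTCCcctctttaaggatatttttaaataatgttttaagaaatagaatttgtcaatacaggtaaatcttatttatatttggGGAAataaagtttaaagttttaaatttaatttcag
The window of *Etv2* held 10 matches on both strands, and at least 10 were found in 0.192% of the 32851 windows of this length in the table. That of *Erg* held 4, as did or exceeded 33.4% of windows. The other windows held 3 matches in *Etv6*, 2 each in *Elf1* and *Elk3*, 1 in *Ets2* and 0 in *Etv5*, against a median of 3 over all windows. A match is a run of letters and not a bound site.

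*Etv4* and *Etv5*, the 2 PEA3 genes, were highest in ESCs and almost gone in HP. *Etv4* was listed at 21.0 FPKM in ESCs, then at 8.97 FPKM (MES), 5.65 FPKM (HB), 0.172 FPKM (HP) and 0.102 FPKM (MAC). *Etv5* was at 37.2, 22.2, 8.55 and 0.379 FPKM from ESCs to HP, and returned to 9.38 FPKM in MAC, which is above its level in HB as deposited and below it after upper quartile scaling (6.31 against 9.08). The pair thus moved together down to HP and parted in MAC. On the log2 scale *Etv4* changed by -1.14 from ESCs to MES and by -2.50 from HB to HP, and *Etv5* by -1.28 from MES to HB, by -2.79 from HB to HP and by 2.91 from HP to MAC. Relative to the median of all genes, the last value was 2.61, and after upper quartile scaling 2.36. The level of *Etv5* in ESCs was the highest of 26 ETS genes there, and *Etv4* came next but one, after *Gabpa*, a subunit of the GABP complex that many cells use. The ESC markers fell over the same stages, as given above, and their part in the fall of both genes was not tested.

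The PEA3 genes were set beside 8 genes that FGF and ERK signalling induces or uses, of which 7 were in the table of stages. From HB to HP, 6 of the 7 were called lower, against 7.71% of all genes, and 0 higher, against 7.78%, with a median of -2.27 against -0.11 over all genes. The largest falls were in *Dusp6*, a phosphatase that switches off ERK, from 50.7 to 4.66 FPKM, *Fgf8*, a ligand of the primitive streak, from 6.76 to 0.0299 FPKM, *Spry4*, an inhibitor of the pathway, from 6.36 to 0.152 FPKM, and *Spry2*, another such inhibitor, from 20.4 to 3.43 FPKM. From HP to MAC, *Dusp6* was back at 91.4 FPKM, as *Etv5* was back, whereas *Spry4* was at 0.0333 FPKM and *Etv4* stayed near 0. In that step 3 of the 7 genes were higher, *Dusp6*, *Spred1* and *Egr1*, against 30.2% of all genes. Lower were 0, against 12.5%. The median of the list was -0.02 against 0.30 over all genes, so the list as a whole did not return. From ESCs to MES the list and the PEA3 genes ran apart, since *Dusp6*, *Fgf8* and *Fgf5* were called higher, *Fgf8* from 0.659 to 74.8 FPKM, while *Etv4* was called lower. From ESCs to MES 3 of the 7 genes were higher, against 6.15% of all genes, and 1, *Spry4*, was lower, against 6.46%, with a median of 0.84 against 0 over all genes.

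*Etv2* was a peak of 1 stage. It stood at 2.02 FPKM in ESCs and 8.45 FPKM in MES, reached 46.7 FPKM in HB and was back at 2.06 FPKM in HP, with 0.0217 FPKM left in MAC. It was already higher in MES than in ESCs by 1.65 on the log2 scale, rose by a further 2.33 into HB, a 5.52-fold ratio of FPKM, and then fell by 3.96 into HP, a 22.6-fold ratio. Of 11988 genes past the filter, 16 had a larger rise from MES to HB and 23 a larger fall from HB to HP. In HB it was the ETS gene with the highest level, at 26.4% of the summed FPKM of all 26. FLK1, the product of *Kdr*, was the marker by which HB cells were sorted apart from MES, and the part of the sort in this peak was not tested.

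**Figure D1:**
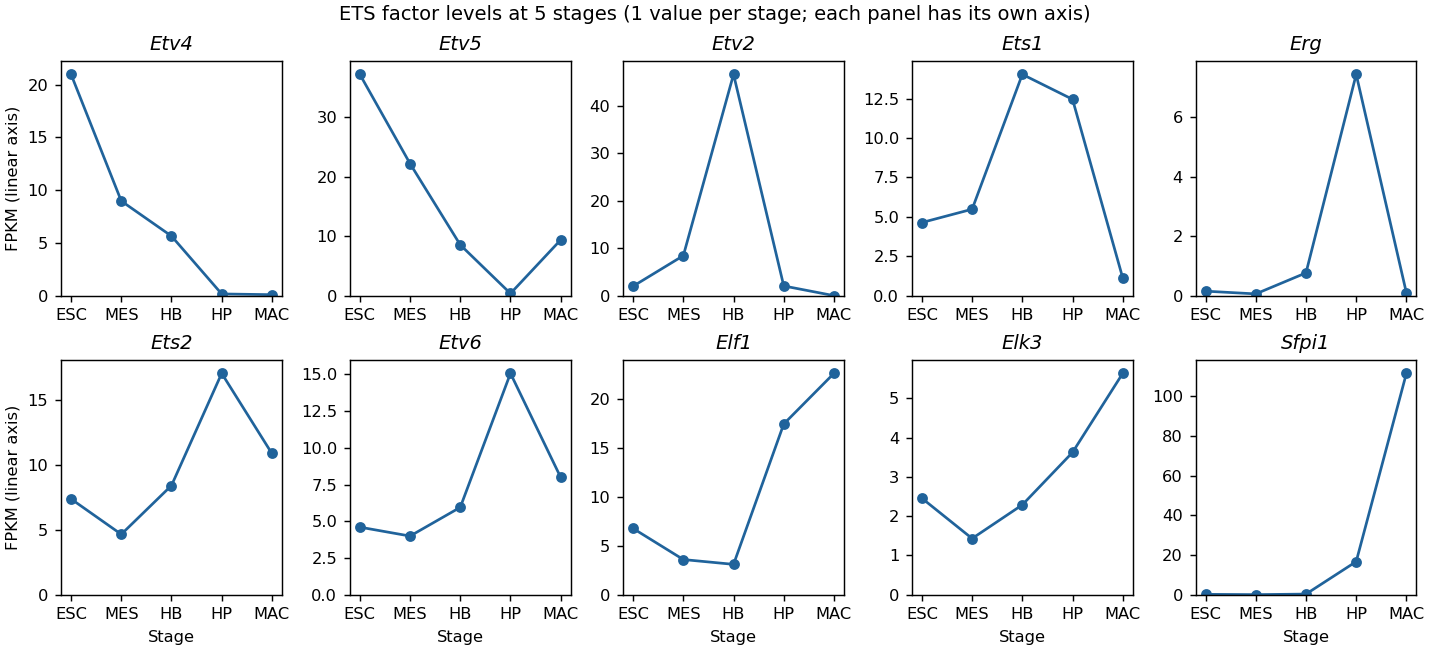
FPKM (linear axis, its own in each panel) of the 10 ETS factors from ESC to MAC, with 1 point per stage, the authors' value for 2 combined replicates, and lines that only join points. *Etv4* and *Etv5* begin at 21.0 and 37.2 FPKM and reach 0.172 and 0.379 FPKM in HP, *Etv2* stands out at 46.7 FPKM in HB, *Erg* at 7.44 FPKM in HP, and *Sfpi1* climbs to 111 FPKM in MAC.

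The endothelial genes that ETV2 and other ETS factors are known to activate were examined as a list of 18, of which 15 passed the filter. From MES to HB, 10 of the 15 were called higher, against 2.15% of all genes, and 0 lower, against 2.81%, with a median of 1.14 against 0.09 over all genes. *Kdr*, the VEGF receptor, went from 2.15 to 77.6 FPKM, *Tal1* from 0.704 to 19.9 FPKM, *Lmo2* from 4.45 to 56.5 FPKM and *Gata2*, a factor of blood stem cells, from 0.471 to 6.48 FPKM. From HB to HP, where *Etv2* was nearly gone, 6 of the 15 were higher (7.78% of all genes), among them the endothelial adhesion gene *Cdh5*, from 1.70 to 10.8 FPKM, and 2, *Kdr* and *Sox7*, were lower (7.71% of all genes). From HP to MAC 0 were higher, against 30.2% of all genes, and 7 lower, against 12.5%, with a median of -0.74 against 0.30. *Kdr* is itself the sort marker of HB and so had to differ between MES and HB. *Tal1* and *Lmo2* also served here as markers of hemangioblasts, and the list holds all the markers of endothelium. These counts thus overlap with the identity of the stages, and the part of ETV2 in them was not tested.

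*Ets1* was highest in HB, like *Etv2*, and *Erg* and *Ets2* in HP. *Ets1* had 4.64 FPKM in ESCs and 5.49 in MES, then 14.0 and 12.5 FPKM in HB and HP, and only 1.13 FPKM in MAC. It rose by 1.21 on the log2 scale from MES to HB and fell by 2.66 from HP to MAC, with HB and HP within 0.16 of each other. *Erg*, the closest relative of *Fli1*, was at 0.154, 0.0623 and 0.768 FPKM in ESCs, MES and HB, then at 7.44 FPKM in HP and 0.0964 FPKM in MAC. Its change from HB to HP was 2.25 and from HP to MAC -2.94. *Fli1* differed from *Erg* at both ends of this course, with 14.6 FPKM in HB, 25.2 in HP and 39.5 in MAC. *Ets2*, which responds to ERK in many cells, was at 7.38, 4.66, 8.42, 17.1 and 10.9 FPKM from ESCs to MAC and was called at no transition. Its rise of 0.94 from HB to HP lay just inside the limit, and with the smaller pseudocount of 0.1 FPKM it was 1.01. The megakaryocyte markers, a lineage in which *Erg* is used, summed to 27.3 FPKM in HP against 0.0223 in HB. In MAC, where *Erg* was nearly absent, they summed to 275 FPKM. Most of both sums was *Pf4*, at 23.0 FPKM in HP and 274 in MAC. The markers of endothelium, where ERG also acts, summed to 46.7 FPKM in HP against 5.35 in HB and 24.2 in MAC. The part of either list in the rise of *Erg* was not tested.

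*Etv6*, *Elf1* and *Elk3* were present at every stage. *Etv6* was listed at 4.60, 3.99 and 5.95 FPKM in ESCs, MES and HB, at 15.1 FPKM in HP and at 7.99 FPKM in MAC, and was called higher from HB to HP, by 1.21. *Elf1*, an ETS activator of T cell and blood genes, was at 6.77, 3.60, 3.11, 17.5 and 22.6 FPKM and rose by 2.17 in the same step. *Elk3*, a ternary complex factor that works with SRF, had 1.43 FPKM in MES and 5.64 FPKM in MAC as its extremes and was called at no transition. It was the least varied of the 10 on the log2(FPKM + 1) scale, with a range of 1.45. By the plain ratio of FPKM, *Ets2* and *Etv6* varied less. From HP to MAC, *Elf1* changed by 0.36 and *Elk3* by 0.52, but by -0.34 and -0.08 after upper quartile scaling, so that the direction of these 2 genes depends on the scaling. *Etv6* and *Ets2* changed by -0.84 and -0.60 in that step, and by -1.49 and -1.28 after the scaling. In the table of stages the locus of *Elf1* begins 21257 bases upstream of the nearest start in GENCODE and overlaps exons of *Wbp4* on the opposite strand. In the same way *Elk3* overlaps exons of *Cdk17*, and *Etv6* overlaps exons of *Gm17089*. The study kept the strands apart in its RNA-seq density profiles, but whether strand was used in counting is not given in the sources used here. Reads of these neighbours thus cannot be told apart from those of *Elf1*, *Elk3* and *Etv6*.

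*Sfpi1*, like *Erg*, first passed 1 FPKM in HP, and it reached the highest level of the 10. It was listed at 0.196 FPKM in ESCs, 0.0500 in MES and 0.322 in HB, all under 1 FPKM, then at 16.7 FPKM in HP and 111 FPKM in MAC. On the log2 scale it rose by 3.74 from HB to HP, where 47 of 11988 genes rose more, and by 2.67 from HP to MAC, where 887 rose more. The second value was 2.36 relative to the median of all genes and 1.95 after upper quartile scaling. The level in MAC stood above 96.2% of genes detected there. The macrophage markers summed to 5.23 FPKM in HP and to 818 in MAC, and their part in the rise was not tested.

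Genes that PU.1 is known to drive in macrophages formed a list of 12, all past the filter. From HB to HP, 6 of the 12 were called higher, against 7.78% of all genes, and from HP to MAC 11 of the 12, against 30.2%, with 0 lower at either step. The median change was 1.19 and then 5.03, against -0.11 and 0.30 over all genes. At the first step *Ncf1*, a subunit of the phagocyte oxidase, was already at 10.1 FPKM, while 2 receptors of mature macrophages were low, *Msr1*, the scavenger receptor, at 0.316 FPKM and *Mrc1*, the mannose receptor, at 0.629 FPKM. In MAC *Msr1* was at 589 FPKM, *Mrc1* at 279, *Fcgr1*, the high-affinity Fc receptor, at 158 and *Cd68* at 146. These 4 had the largest changes of the list, from 6.05 to 8.81 on the log2 scale. *Csf3r*, the receptor for G-CSF and a gene of granulocytes, was the exception at 0.985 FPKM in HP and 2.52 FPKM in MAC. The list was chosen for genes active in macrophages, and *Csf1r* and *Cd68* are also among the macrophage markers. A rise into MAC thus follows from the choice of the list, and the part of PU.1 in it was not tested.

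Set beside all genes, the ETS factors were called most often at the step from HB to HP. From ESCs to MES 1 of 10 was higher, *Etv2*, where 6.15% of all genes were higher, and 1 was lower, *Etv4*, where 6.46% were lower, both near the share among all genes. From MES to HB, *Ets1* and *Etv2* were higher, 2 of 10, against 2.15% of genes, and *Etv5* was lower against 2.81%. From HB to HP 4 of 10 were higher, *Erg*, *Etv6*, *Elf1* and *Sfpi1*, against 7.78% of genes, and 3 were lower, *Etv2*, *Etv4* and *Etv5*, against 7.71%. From HP to MAC 2 were higher, *Etv5* and *Sfpi1*, which is below the 30.2% of all genes that were higher there, and 3 were lower, *Ets1*, *Erg* and *Etv2*, against 12.5%. Of the 16 ETS genes outside the 10, 10 passed the filter. At these transitions they gave 1 gene higher and 1 lower from MES to HB (*Fli1*, by 3.27, and *Elf3*, an epithelial factor, by -1.51), 2 higher from HB to HP (*Elf4*, by 1.76, and *Elk4*, by 1.11), and 1 higher from HP to MAC (*Etv3*, a repressor, by 2.28).

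**Figure D2:**
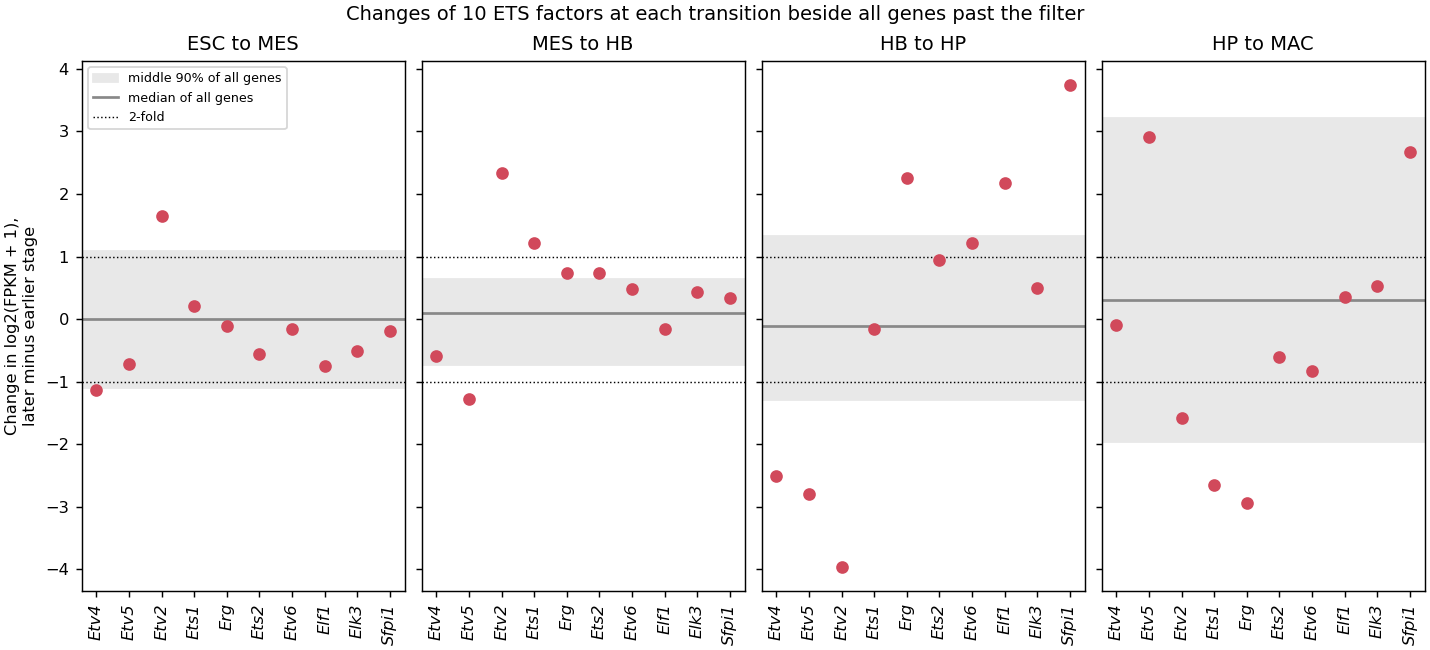
Change in log2(FPKM + 1), later minus earlier stage, of the 10 ETS factors at the 4 transitions (red points), beside the middle 90% of the 11988 genes past the filter (grey band), their median (grey line) and the 2-fold limits (dotted lines). From HB to HP 3 factors lie above the band, *Erg*, *Elf1* and *Sfpi1*, and 3 below it, *Etv2*, *Etv4* and *Etv5*, whereas from HP to MAC the band itself reaches 3.22.

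The sum over the 26 ETS genes went from 164 FPKM in ESCs and 122 in MES to 177 and 178 in HB and HP and to 307 in MAC, and the 10 genes made up between 48.4% of it in MES and 55.1% in MAC. What changed was which of them led. *Etv5* was the ETS gene with the highest level in ESCs (22.6% of the sum) and in MES (18.2%), *Etv2* in HB (26.4%), *Fli1* in HP (14.2%) and *Sfpi1* in MAC (36.3%). By subfamily, the PEA3 genes *Etv1*, *Etv4* and *Etv5* together held 35.8%, 26.6% and 8.40% of the sum in ESCs, MES and HB. The HP stage had no single leader, as *Elf2*, *Elf1*, *Ets2*, *Sfpi1* and *Etv6* followed *Fli1* at shares from 12.3% to 8.49%. These are shares within a column and do not depend on how columns are scaled to each other. The sums over the 26 genes do depend on it, and all genes together summed to 381686 FPKM in MAC against 185803 in HP.

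**Figure D3:**
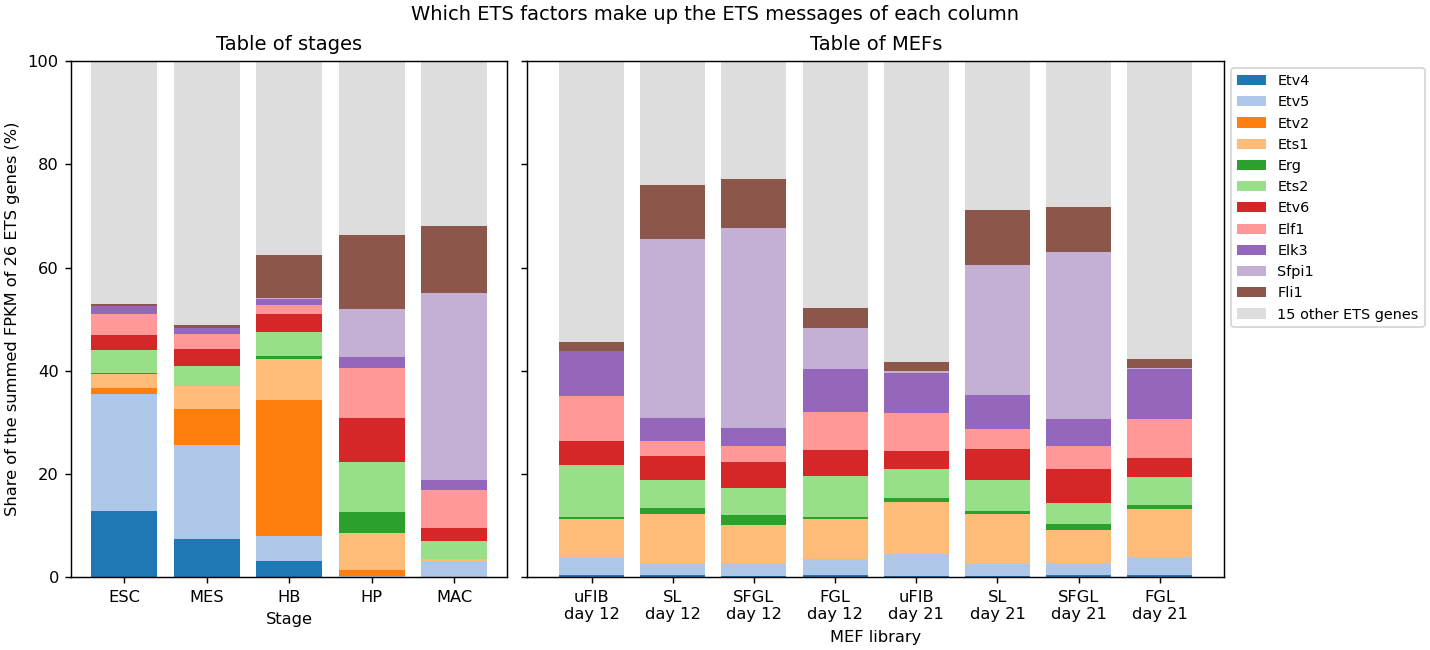
Share (%) of the summed FPKM of 26 ETS genes held by each of the 10 factors, by *Fli1* and by the other ETS genes, at 5 stages (left) and in 8 MEF libraries (right), with 1 bar per column of the tables. The largest coloured block passes from *Etv5* in ESCs and MES to *Etv2* in HB (26.4%) and *Sfpi1* in MAC (36.3%), and *Sfpi1* is the largest block in the 4 SL and SFGL libraries (25.2% to 38.9%).

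In MEFs the ETS factors began from another set. In untreated MEFs the leading members were *Ets1*, at 14.3 FPKM on day 12 and 17.7 on day 21, *Elf1*, at 16.5 and 12.7, *Elk3*, at 16.6 and 13.5, and *Ets2*, at 19.0 and 9.86. *Sfpi1* was at 0.0485 and 0.712 FPKM, and *Erg* at 0.734 and 1.37 FPKM. *Etv2* was listed at 0 in all 8 libraries, treated ones included, as were *Fev* and *Spic* among the other ETS genes. None of 8 housekeeping genes was listed at 0 in any library. Their lowest value was 7.81 FPKM, so they say nothing of how a low message is detected. The uFIB libraries of the 2 days are the closest thing to a repeat. Between them the 10 genes differed by a median of 0.36 on the log2 scale and by at most 0.88, in *Ets2*, and all 12807 genes past the filter by a median of 0.18, with 2.88% past 2-fold.

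*Sfpi1* was the member with the largest change in reprogrammed MEFs. In SL it was at 156 FPKM on day 12 and 81.6 FPKM on day 21, and in SFGL at 171 and 102 FPKM. The changes against uFIB were 7.23 and 5.59 in SL and 7.36 and 5.91 in SFGL. All 4 libraries stood above both uFIB libraries, and both values of day 21 lay below those of day 12. *Sfpi1* was in neither vector set, and in each of the 4 libraries it was the ETS gene with the highest level, above *Fli1*, which was at 46.7 and 34.4 FPKM in SL, where no *Fli1* vector was given, and at 41.2 and 27.8 FPKM in SFGL. The tables were normalized separately, so these levels cannot be set against the 111 FPKM of MAC. Within its own column, *Sfpi1* stood above 97.5% of detected genes in SL at day 12.

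*Etv6* was the second member called in SL and SFGL. On day 12 it was at 8.87 FPKM in untreated MEFs, 20.6 after SL and 21.7 after SFGL, and on day 21 at 6.001, 19.5 and 20.8 FPKM, changes of 1.13 and 1.55 in SL and of 1.20 and 1.64 in SFGL. *Erg* was at 5.02 FPKM in SL and 9.07 FPKM in SFGL on day 12, and at 2.19 and 3.996 FPKM on day 21. It was called in SFGL, by 2.54 and 1.08, and missed the limit in SL on day 21, with 1.80 on day 12 and 0.43 on day 21. SFGL lay above SL for *Erg* by 0.74 on day 12 and by 0.65 on day 21. Between the uFIB libraries *Erg* differed by 0.45, and the largest difference of a member there was 0.88, in *Ets2*. With 1 library per treatment and day, the difference between SFGL and SL was not tested. *Ets1* was at 43.0 and 30.8 FPKM in SL and at 31.9 and 19.9 FPKM in SFGL, past the limit on day 12 in both, by 1.52 and 1.10, but not on day 21, by 0.77 and 0.16.

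The other members did not pass the 2-fold limit in SL or SFGL on either day. *Ets2* was at 24.6 and 19.4 FPKM in SL and at 23.0 and 12.6 in SFGL, changes of 0.27 to 0.91. *Etv5* was at 10.7 and 7.68 FPKM in SL and 11.1 and 7.45 in SFGL, against 6.20 and 7.27 in uFIB. *Etv4* did not exceed 1.64 FPKM in any library. *Elf1* lay between 12.5 and 16.5 FPKM and *Elk3* between 13.5 and 21.3 FPKM over the 8 libraries.

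Counted together, 2 of the 9 members past the filter were higher in SL on both days, *Etv6* and *Sfpi1*, against 9.85% of all genes, and 0 were lower, against 8.4%. In SFGL 3 of 9 were higher, *Erg*, *Etv6* and *Sfpi1*, against 10.7% of genes, and 0 were lower, against 12.1%. In FGL 0 were higher, against 0.039%, and 0 lower, against 0.0156%. Of the ETS genes outside the 10, *Fli1* was higher and *Erf*, a repressor of the family, was lower in both SL and SFGL, *Erf* with a change of -1.09 on each day in SL. Fibroblast messages were still found in these cultures. The 4 fibroblast markers summed to 2146 and 1073 FPKM in SL and to 1771 and 884 in SFGL, on day 12 and day 21, against 6245 and 4953 in uFIB, and 4 of the 4 were above 1 FPKM in every library. The red cell markers summed to 64.4 and 160.0 FPKM in SL and the megakaryocyte markers to 34.8 and 37.2, against 0 to 1.12 for these lists in uFIB, and their part in these changes was not tested.

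**Figure D4:**
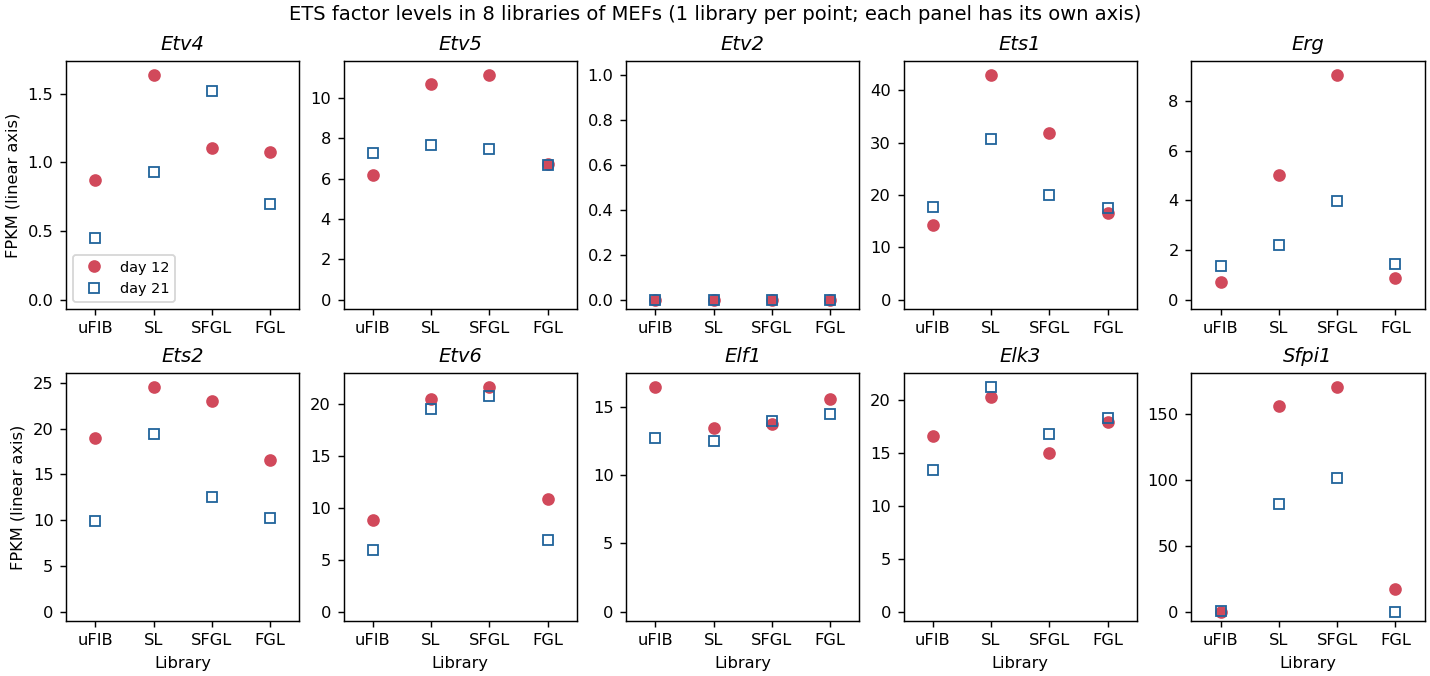
FPKM (linear axis, its own in each panel) of the 10 ETS factors in untreated MEFs (uFIB) and in MEFs labelled SL, SFGL and FGL, with 1 point per library (filled circles for day 12, open squares for day 21). *Sfpi1* stands at 81.6 to 171 FPKM in SL and SFGL, *Etv6* is at 19.5 to 21.7 FPKM there against 6.001 to 8.87 in uFIB, and *Etv2* is at 0 throughout.

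The libraries labelled FGL ran with their label for *Lmo2* and *Gata2* and against it for *Tal1* on day 12 and *Fli1* on day 21. *Lmo2* was at 36.2 and 66.5 FPKM on day 12 and day 21, against 0.499 and 2.28 in uFIB, and *Gata2* at 21.9 and 35.1 FPKM, against 1.80 and 2.13, and both were called higher on both days. *Tal1*, which is not in the FGL set, was at 7.04 FPKM in FGL on day 12 and at 0.0414 FPKM in uFIB. *Fli1*, which is in the set, was at 3.35 FPKM in FGL on day 21 and at 3.02 FPKM in uFIB. On day 12 *Fli1* was at 8.29 FPKM in FGL and 3.43 in uFIB. The *Fli1* vector of SFGL was not visible in the level of *Fli1* either. SFGL minus SL, which had no such vector, was -0.18 on day 12 and -0.30 on day 21. *Sfpi1* was at 16.9 FPKM in FGL on day 12 and at 0.0825 FPKM on day 21, changes of 4.09 and -0.66. On day 12 the red cell markers summed to 15.2 FPKM and *Ncf1* was at 26.3 FPKM, and on day 21 they were at 0.231 and 0.0369 FPKM. The other members differed from uFIB by at most 0.42 in size, in *Elk3* on day 21. Statements on SL and SFGL do not rest on the 2 FGL libraries. Their changes on day 21 do rest on uFIB of that day, which held traces of blood messages, as given above.

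PU.1 targets were examined in the MEFs as well. Of the 12, 10 passed the filter, and 7 were higher on both days in SL, against 9.85% of all genes, and the same number in SFGL, against 10.7%, with 0 lower. In SL, *Ncf1* was at 271 and 103 FPKM, *Ncf4*, another oxidase subunit, at 122 and 55.6, *Cybb*, the membrane subunit of the oxidase, at 105 and 45.7, and *Csf3r* at 35.5 and 8.48. Of the 4 genes with the largest rise from HP to MAC, *Cd68* was higher in SL on both days, at 26.2 and 14.3 FPKM against 2.93 and 3.38 in uFIB. The other 3 are receptors of mature macrophages. *Mrc1*, at 0.573 and 0.457 FPKM in SL, and *Fcgr1*, at 0.146 and 0, did not pass the filter and could not be called. *Msr1* passed it, at 1.18 and 0.427 FPKM in SL, and was not called. *Csf1r*, the receptor for M-CSF, was at 0.884 and 0.734 FPKM and was not called either. In the share of genes below them in the same column, which does not depend on the scaling of the tables, *Csf1r* stood at 98.5% in MAC and 24.1% in SL at day 12, *Ncf1* at 95.4% and 98.5%, and *Csf3r* at 40.7% and 86.4%. The 4 macrophage markers summed to 33.4 and 19.5 FPKM in SL, most of it from *Cd68*. Of the remaining markers in that list, *Emr1* was called higher in SL on both days, and *Mertk* was not called. *Emr1* was at 5.35 and 1.89 FPKM in SL against 0.0359 and 0.0251 in uFIB. *Csf1r*, *Fcgr1*, *Msr1*, *Mrc1* and *Cd68* were singled out for being the largest in the list at HP to MAC or, for *Csf1r*, for its place among the markers. *Ncf4*, *Cybb* and *Csf3r* were chosen after their values were seen.

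**Figure D5:**
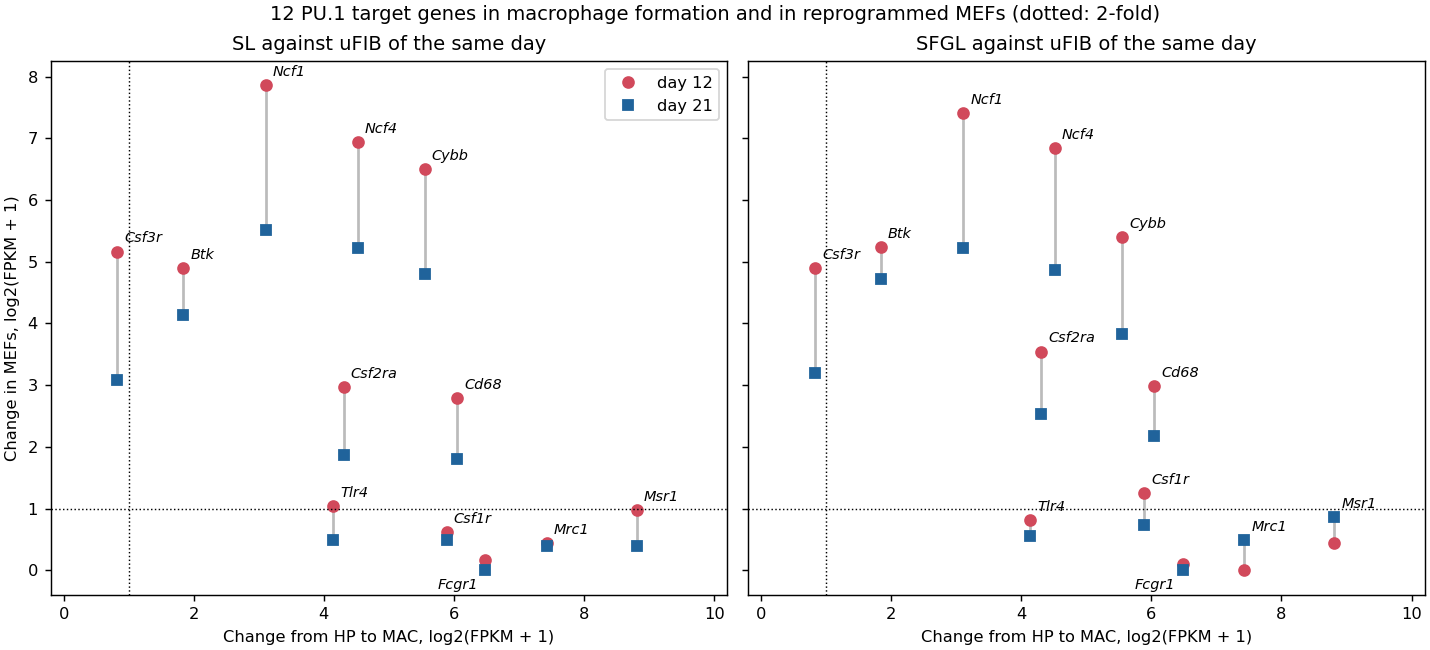
Change in log2(FPKM + 1) of 12 PU.1 target genes from HP to MAC (horizontal axis) and in MEFs against uFIB of the same day (vertical axis), for SL (left) and SFGL (right), with circles for day 12, squares for day 21, a grey line joining the days of a gene and dotted lines at 2-fold. *Ncf1*, *Ncf4*, *Cybb*, *Btk* and *Csf3r* sit high on the vertical axis, while *Msr1*, *Mrc1* and *Fcgr1*, farthest to the right, lie at or below the dotted line.

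Of the endothelial list, 13 genes passed the filter in the MEFs. Of these, 10 were higher on both days in SL, against 9.85% of all genes, and 5 in SFGL, against 10.7%. In either set 0 were lower, against 8.4% and 12.1%, and the difference between the 2 counts was not tested. *Tal1* and *Lmo2* are vector genes in both sets and *Gata2* is one in SFGL, so that their levels can include the vectors. All 3 are among the genes called in each set, and the rest of the 5 in SFGL were *Pecam1* and *Egfl7*. Leaving *Tal1*, *Lmo2* and *Gata2* aside, *Cdh5* was at 3.10 and 3.92 FPKM in SL against 0.909 and 0.303 in uFIB. *Sox7*, a factor of early endothelium, was at 1.41 and 2.61 FPKM in SL against 0 and 0.0499 in uFIB. Both were called in SL and not in SFGL. *Kdr* stood above 97.4% of detected genes in HB but above no more than 21.4% in any MEF library. Of the FGF and ERK genes 0 of 7 were higher on both days in SL and 1, *Fgf5*, was lower, near the shares of all genes (9.85% and 8.4%).

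For each member up to 3 genes with the most similar course over the 5 stages and 8 MEF libraries were found, by the root mean square difference of log2(FPKM + 1) after centring in each table. For *Sfpi1* these were *Ncf1* (0.28), *Coro1a* (0.35) and *Rac2* (0.37), all genes of leukocyte movement or oxidase function, where the median gene lay at 2.93. For *Etv2* they were *Msx2* (0.22), *Gata4* (0.31) and *Cd40* (0.32), with the median gene at 1.28. *Erg* was closest to *Ccnd3* (0.39) and *Slc6a9* (0.42), and *Ets1* to *Polq*, *4930422G04Rik* and *Smc4* (0.28 to 0.32). *Etv4* had *Tcfl5*, *Rhebl1* and *E130012A19Rik* (0.41 to 0.45), and *Etv5* had *Stx3*, *Spint1* and *Mtmr7* (0.39 to 0.49), none of them shared between the pair. *Etv6* had *Prkab1*, *Soat2* and *Cdkn2d* (0.17 to 0.24), *Elf1* had *Tm7sf3*, *Mbnl2* and *Stambp* (0.22 to 0.26), *Ets2* had *Mkl1*, *Zfp422* and *Tdrkh* (0.25 to 0.26) and *Elk3* had *Camta2*, *Ptpn12* and *Whsc1l1* (0.12 to 0.14). Genes of small range such as *Elk3* lie close to many others, with a median of 0.53, so that their distances say less. No p-value goes with these distances, whose 13 points are stages and libraries and not replicates.

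By the stage of their highest value, the members divided into 2 with their peak in ESCs, 2 in HB, 3 in HP and 3 in MAC, and 0 had it in MES. After upper quartile scaling, *Elf1* and *Elk3* moved from MAC to HP, which then held 5 and MAC 1. The order of *Ets1* in HB and HP, of *Etv5* in HB and MAC and of *Etv2* in ESCs and HP rests on differences of 0.16, 0.12 and 0.02 on the log2 scale, for which no spread is known. After the scaling the order turned for *Etv5*, as given above, and for *Etv2* (2.40 in ESCs against 2.32 in HP).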

How the data were processed

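RNA-seq was analysed for 18 samples, 10 of the stages (2 replicates for each of 5 stages) and 8 single libraries of MEFs. Every value used is an FPKM value that the authors deposited. By the study's methods, reads of the stages were aligned with SHRiMP to mm10 (GRCm38), unique reads were kept, duplicates were removed with Picard, and Cufflinks combined the replicates into 1 value per TSS; the submitters' processing notes name TopHat and Cufflinks for the MEFs, without versions. The 2 tables were normalized separately. In the table of stages, 1 column of values (HE) was not used, since no sample here maps to it. TSS rows were summed per gene (22089 rows, 20310 genes); each member has 1 row.

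Changes were computed as log2(FPKM + 1) in Python 3.11.15 with pandas 2.3.3 and NumPy 2.4.6, with a filter of at least 1 FPKM in 1 column, and tested on simulated data. The design had named limma for replicate columns, which the tables used here do not have. Low MEF values gave rough depths of 0.587 to 1.56 times that of uFIB at day 12, from steps that 15.1% to 19.2% of low genes followed; the read counts behind the values are not known. Alternatives were a pseudocount of 0.1 or 0.001 FPKM, upper quartile scaling, no filter or 5 FPKM, the highest TSS row, or both uFIB libraries averaged as the reference.

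The members, lists and limits were chosen with earlier results of these data known. Named were all members, other ETS genes past 2-fold at a transition or in SL, up to 4 examples per list with the largest change at MES to HB (endothelium), HP to MAC (PU.1) or HB to HP (FGF and ERK), and for each member the 3 genes nearest in pattern; some genes of these lists are not reported here, and their lists were used without them; other names were chosen after their values were seen.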

Additional observations from a re-analysis of the deposited data

Results flagged for a closer look

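*Sfpi1* in the libraries labelled FGL was set apart because its changes on the 2 days had opposite signs. Against uFIB of the same day it was higher by 4.09 on the log2(FPKM + 1) scale on day 12 (16.9 against 0.0485 FPKM) and changed by -0.66 on day 21 (0.0825 against 0.712 FPKM). The second change did not pass the 2-fold limit, compares values under 1 FPKM, and is smaller than the 0.71 between the uFIB libraries, so that an opposite direction is not shown. Its reference, uFIB on day 21, held traces of other blood messages, as given above. The difference between the days was not tested, as each day has 1 library. *Tal1* (7.04 FPKM on day 12 and 0.0705 on day 21) and *Ncf1* (26.3 and 0.0369 FPKM) moved with it, and their part in the result was not tested.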

How the results depend on the processing

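Of 84 counts of members recomputed under the alternatives, 80 stayed within 1.5 times the reported count. Some of these could not move. The highest TSS row gave 8 counts, and each member has only 1 row. No filter and the filter of 5 FPKM gave 14 counts each, and every called member reached 5 FPKM in its table. Members higher from MES to HB numbered 4 with a pseudocount of 0.1 FPKM and 4 with 0.001 FPKM, in place of 2, through *Erg* (2.42 and 3.60) and *Sfpi1* (1.49 and 2.66), both under 1 FPKM at these stages, where 1 FPKM of pseudocount shrinks a ratio. Members lower from ESCs to MES numbered 3 with 0.001 FPKM, in place of 1, and members lower from HP to MAC numbered 5 after upper quartile scaling, in place of 3, through *Ets2* and *Etv6*. Of 400 log2 changes of single members, 383 kept their side of the 2-fold limit, and no called change turned its direction. Of these, 40 came from the highest TSS row and could not move either. No paired analysis was possible for the stages because each has 1 combined value, and a fit of the MEFs with day as a block was not run. No replicate of a stage, treatment and day could be left out, and the values without a spread limit what can be said of any difference near 2-fold.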
